A study of Rattus norvegicus with 8 samples.

Results

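The genes described here code for proteins of the extracellular matrix other than collagen chains and for the enzymes and inhibitors that build or remodel that matrix. A list of 48 gene names was matched to the gene names of the array's gene spots, with every probe of a name taken. A spot was found for 46 of the 48 names, out of 26276 genes on the array, and no spot was named Lamb1 or Hspg2. The 46 genes had 54 probes.

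RNA came from adult male Wistar rats of 120 ± 12 days, all castrated, and the treated rats had received testosterone propionate as 1 subcutaneous dose of 4 mg/kg in corn oil. Treated RNA taken 8 h or 24 h after the dose was hybridised with RNA of castrated control rats on 2-colour Agilent arrays, 4 arrays for each time. Treated RNA carried Cy3 in replicates 1 and 2 at 8 h and in replicates 3 and 4 at 24 h, and Cy5 on the other arrays. The series title names muscle atrophy, while the labels describe the material as castrated rat cells (C3d) and name no muscle. The labels call the arrays biological replicates without saying whether each holds 1 animal or a pool, and whether the controls received oil is not given in the sources used here, so p-values measure the spread between these arrays. The arrays of each time shared 1 slide and 1 scan, so the effect of time and that of slide cannot be told apart.

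The matrix around muscle fibres is secreted mainly by fibroblasts and consists of collagen fibrils held in place by proteoglycans and glycoproteins, with a basement membrane next to each fibre. Procollagen is hydroxylated and folded in the endoplasmic reticulum with the help of chaperones, trimmed outside the cell and then cross-linked by lysyl oxidases. Metalloproteinases cut matrix proteins, and tissue inhibitors of metalloproteinases (TIMPs) hold those enzymes in check.

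Of the 54 probes, 43 gave a signal well above the local background on 3 or more arrays of a treated or control group and were kept, and 38 of the 46 genes had such a probe. Where a gene had several, its brightest one was used. Ratios are of treated to control RNA within an array, on the log2 scale, in which 1 unit is a doubling, and a gene was called when limma's moderated test gave an adjusted p under 0.05 over all 12069 probes tested. The SE of a fitted ratio comes from 1 moderated variance per probe, estimated over all 8 arrays of both times. For the matrix genes it is the same at 8 h and 24 h and is not the spread of the 4 ratios listed. The n beside it is the number of arrays at that time. On at least 1 array, 14 of the 14 skeletal muscle fibre markers with a spot were well above background, against 1 of 8 markers of male accessory gland epithelium. Replicate 1 at 8 h had the widest spread, with an SD over kept probes of 0.44 on the log2 scale. The other 8 h arrays had 0.18 to 0.20 and the 24 h arrays 0.24 to 0.30. Correlations between arrays of a time ran from -0.12 to 0.37 at 8 h and from 0.23 to 0.70 at 24 h. At 8 h replicate 2 was the least like the others, with correlations of 0.28, -0.12 and -0.04 with replicates 1, 3 and 4. Replicates 1, 3 and 4 correlated with each other by 0.295 to 0.37.

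The calls below fell on 5 genes, and the first 30 of the 60 bases of each of their probes are shown here because every value reported for these genes is the hybridisation to that probe. The bases come from the array's own annotation.
Ccdc80 (A_42_P551104): agaaatgtgtaaccttattcccatccagtt
Creb3l1 (A_64_P041223): gcctttttaactgctcctccaccagctcag
Sparc (A_44_P451357): catggaacattgcaccactcgcttctttga
Postn (A_44_P525235): tgacttcaggctgattaaagaaggtgaaac
Adamts1 (A_42_P535644): agctggtccaacagtcgtatcctggtgaat
On the rat build rn4, as the array's annotation gives it, these probes lie at chr11:57223348-57223407 (Ccdc80), chr3:76361171-76361230 (Creb3l1), chr10:40811473-40811532 (Sparc), chr2:143560792-143561828 (Postn) and chr11:25434383-25434442 (Adamts1). The Postn probe spans 1037 bases of genome and so crosses an interval longer than its own 60 bases. Whether a probe lies in coding sequence or in an untranslated region was not analysed here.

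At 24 h after testosterone propionate, 5 matrix genes were higher than in castrated controls: Ccdc80, Creb3l1, Sparc, Postn and Adamts1. None of the 38 tested genes was called lower, and 33 did not pass. Over all 10878 genes tested, 4.17% were called higher and 2.91% lower, or 7.09% in either direction. The 5 genes were Ccdc80, Sparc and Postn among the secreted glycoproteins, Creb3l1 among the genes of procollagen production and Adamts1 among the proteases. At an unadjusted p under 0.05, 13 of the 38 were higher and 3 lower, against 12.3% and 10% of all genes. The median log2 ratio of the 38 genes was 0.13, with a range from -0.30 to 1.31, and 24 of them lay above 0; the median of all genes tested was 0.00.

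Ccdc80 codes for a secreted protein that binds to the matrix, known also from adipose tissue. Its log2 ratios at 24 h were 1.15, 1.27, 1.49 and 1.34 in replicates 1 to 4. Normalized log2 intensities were between 8.67 and 8.86 in the 4 controls and between 9.92 and 10.35 in the 4 treated samples of the same arrays, with replicate 3 the highest in both. Every treated sample was above every control sample, and the 4 ratios lay close together. The fitted log2 ratio was 1.31 ± 0.08 (SE, n = 4 arrays), a 2.48-fold higher level, with a limma adjusted p of 4.11e-05. Ccdc80 had 10 spots on each array, whose ratios had a median within-array SD of 0.0894, against an SD of 0.14 between the 24 h arrays.

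Creb3l1 codes for a transcription factor of the endoplasmic reticulum membrane that, in mouse bone, drives transcription of the type I collagen gene. Its log2 ratios at 24 h were 1.04, 1.04, 1.26 and 0.91. Control levels were 7.63, 7.65, 7.95 and 7.86, and treated levels were 8.67, 8.69, 9.20 and 8.77. The groups did not overlap. The fitted log2 ratio was 1.06 ± 0.09 (SE, n = 4 arrays), or 2.09-fold, with a limma adjusted p of 0.000263.

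Sparc codes for a matricellular protein that binds collagen and takes part in fibril assembly. Its log2 ratios were 0.81, 1.01, 1.14 and 0.18, with replicate 4 well below the other arrays. Control levels were 8.86, 8.80, 9.23 and 9.17, and treated levels were 9.66, 9.81, 10.37 and 9.34. The lowest treated sample, replicate 4, was only just above the highest control sample. The fitted log2 ratio was 0.78 ± 0.14 (SE, n = 4 arrays), or 1.72-fold, with a limma adjusted p of 0.00944. The SD of the ratios was 0.43 over the 24 h arrays and 0.13 over the 8 h arrays. The SE, which draws on both times, understates the spread at 24 h. The call was lost when replicate 1, 2 or 3 of the 24 h arrays was left out, with adjusted p values of 0.0723, 0.0586 and 0.0534.

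Postn codes for periostin, a secreted adhesion protein found where collagen-rich tissue is laid down. Its log2 ratios were 0.47, 0.61, 0.77 and 0.57. Control levels were 7.24, 7.25, 7.64 and 7.57, and treated levels were 7.71, 7.87, 8.41 and 8.13. The groups did not overlap, and replicates 3 and 4 were higher than replicates 1 and 2 in both channels. The fitted log2 ratio was 0.61 ± 0.12 (SE, n = 4 arrays), or 1.52-fold, with a limma adjusted p of 0.0139. Leaving out 24 h replicate 3 or 4 moved the adjusted p to 0.0804 and 0.0679, and the processed signals gave a log2 ratio of 0.94.

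Adamts1 codes for a secreted metalloproteinase that cuts large proteoglycans such as versican. Its log2 ratios were 0.29, 0.19, 0.39 and 0.35. Control levels were 6.48, 6.44, 6.42 and 6.46, and treated levels were 6.77, 6.64, 6.81 and 6.81. All treated samples were above all control samples, by a small amount. The fitted log2 ratio was 0.31 ± 0.07 (SE, n = 4 arrays), or 1.24-fold, with a limma adjusted p of 0.027, and the 10 spots per array had a median within-array SD of 0.0726. The call was lost without any 1 of the 24 h arrays (adjusted p from 0.0832 to 0.162), without 8 h replicate 3 (0.0529) and with median centring in place of loess (0.0582). Its size depended on the background correction, with a log2 ratio of 0.89 from the processed signals (adjusted p = 0.00965).

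**Figure D1:**
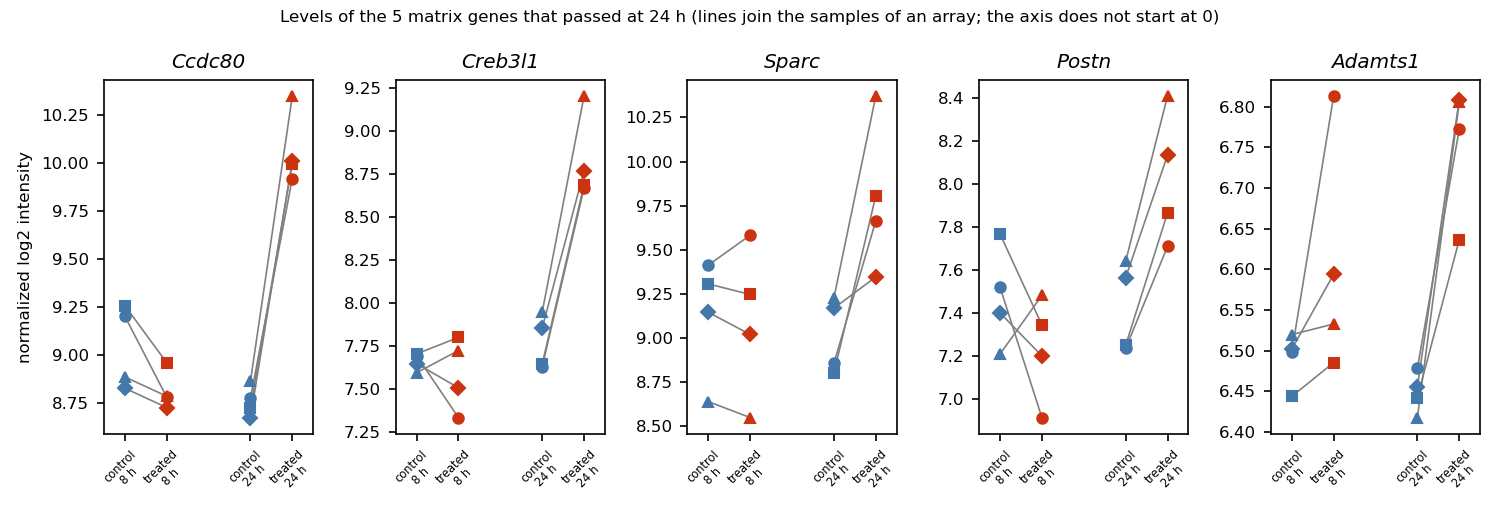
Normalized log2 intensity of the 5 genes called at 24 h, for control (blue) and treated (red) samples at 8 h and 24 h; a line joins the samples of 1 array, and the circle, square, triangle and diamond are replicates 1 to 4. At 24 h every line rises and the treated samples lie above all control samples, from 9.92 to 10.35 against 8.67 to 8.86 for Ccdc80.

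Creb3l1 stood at the head of the genes of procollagen production, in which all 6 tested genes lay above 0 at 24 h and 1 was called. The median of the 6 was 0.24, and 5 had an unadjusted p under 0.05. Pcolce, the enhancer of procollagen C-proteinase, had ratios of 0.24, 0.43, 1.08 and 0.31 and a fitted value of 0.52 ± 0.17 (SE, n = 4 arrays; limma adjusted p = 0.107). Its treated and control levels did not overlap, and replicate 3 was the highest. A second probe of Pcolce, at neighbouring bases of the same gene, gave 0.07, 0.28, 0.73 and 0.06, with a fitted value of 0.28 (adjusted p = 0.239). Serpinh1, which codes for the collagen chaperone HSP47, had a log2 ratio of 0.27 (adjusted p = 0.0889) with all 4 arrays above 0. Plod1, a lysyl hydroxylase, had 0.21 (adjusted p = 0.0717) with arrays between 0.15 and 0.27. P4ha1 and P4ha2, the catalytic subunits of prolyl hydroxylases, had 0.17 and 0.13, also with all 4 arrays above 0. Plod2, another lysyl hydroxylase, was not kept, being above background on 1 treated array at 8 h.

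Among the adhesive and matricellular glycoproteins, 8 of 11 genes were tested and 3 were called higher at 24 h. The remaining 5 tested genes of that group were Fn1 (fibronectin, 0.15), Thbs4 (a thrombospondin, 0.08), Cyr61 (-0.10), Tgfbi (-0.15) and Ctgf (-0.30). Cyr61 and Ctgf belong to the CCN family of matricellular proteins, and Tgfbi, like Postn, has fasciclin domains. Ctgf had the lowest log2 ratio of the 38 genes, with values of -0.29, -0.37, -0.45 and -0.09. Its control levels of 6.38, 6.41, 6.54 and 6.24 did not overlap with the treated levels of 6.09, 6.04, 6.10 and 6.15. The fitted value was -0.30 ± 0.08 (SE, n = 4 arrays), with a limma adjusted p of 0.0559. Ctgf was well above background on 3 of 4 control but 1 of 4 treated arrays at 24 h, so its treated level was close to what the arrays could measure. With the scanner's own processed signals it was called lower, at -1.67 (adjusted p = 0.0288). The thrombospondin genes Thbs1 and Thbs2 and the tenascin gene Tnc were not kept; Thbs1 and Tnc stayed near background in both channels of all arrays.

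Of 8 proteases and inhibitors, 7 were tested at 24 h, with Adamts1 called. Mmp2, gelatinase A, had ratios of 0.48, 0.37, 0.15 and 0.28 and a fitted value of 0.32 (limma adjusted p = 0.0877). A second Mmp2 probe, which lies within the same region of chromosome 19, gave -0.06, 0.13, -0.21 and 0.04 and a fitted value of -0.03. The higher ratio of the first probe was therefore not seen at the second, whose fitted value lay within 1 SE of 0 (SE 0.07). The second probe was also dimmer, with levels at 24 h from 6.26 to 6.47 against 7.01 to 7.73 for the first. Mmp14, the membrane-bound protease that activates the Mmp2 proenzyme, had -0.29 (adjusted p = 0.17), with arrays from -0.63 to 0.03. The inhibitor Timp2 had 0.30 (0.02, -0.06, 0.69 and 0.57; adjusted p = 0.214), and its higher arrays were those with treated RNA in Cy3. Timp1 had 0.19, with all 4 arrays above 0, Adamts2, which trims the N-terminal end of procollagen, had 0.08, and Timp3 had -0.03. The gelatinase gene Mmp9 did not rise well above background anywhere.

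The elastic fibre genes held no call among 8 tested, with a median log2 ratio of 0.14 at 24 h and 6 of the 8 above 0. Fbn1, the microfibril protein fibrillin, had 0.20, and Eln, elastin itself, had 0.13. The lysyl oxidase genes Lox and Loxl2, whose enzymes cross-link collagen and elastin, had 0.20 each (adjusted p = 0.12 and 0.126), with all 4 arrays above 0. Loxl2 passed the filter through the treated 24 h samples alone, in which 3 of 4 arrays were well above background against 0 of 4 controls. With dim control levels raised to the lowest signal well above background, its mean treated level was 1.10-fold the control level. That value has no error attached, and Loxl2 was not called. Efemp1 had 0.15, Fbln1 0.03, Emilin1 -0.02 and Fbln2 -0.03, which code for fibulins and an elastin-associated glycoprotein. Fbln5 and Loxl1 stayed near background throughout.

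The small leucine-rich proteoglycans, which coat collagen fibrils, had a median log2 ratio of -0.07 at 24 h, and a difference from the groups above was not tested. All 7 were tested, 6 had a log2 ratio below 0 at 24 h, and none was called. Of those below 0, Fmod, Bgn (-0.07), Aspn and Dcn lay within 1 SE of 0, with SEs of 0.19, 0.26, 0.08 and 0.11. Lum, lumican, was below 0 on all 4 arrays, with -0.13, -0.29, -0.19 and -0.40. Its fitted value was -0.25 ± 0.07 (SE, n = 4 arrays; limma adjusted p = 0.0757), and it was called lower with the processed signals (-0.83, adjusted p = 0.027). Bgn, biglycan, was spread the widest, with -0.41, 0.03, 0.73 and -0.64, while a second Bgn probe gave -0.05, 0.04, 0.05 and 0.03. Fmod (fibromodulin, -0.18), Prelp (-0.15), Aspn (asporin, -0.03) and Dcn (decorin, -0.00) had arrays on both sides of 0. Ogn, osteoglycin, had 0.15, with replicate 3 at 0.68 and replicate 1 at -0.21.

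The basement membrane was covered by few measured genes. Lamc1, the laminin gamma 1 chain, had -0.02 at 24 h (arrays from -0.35 to 0.29) and Nid1, the linker protein nidogen 1, had 0.09 (arrays from -0.23 to 0.25). A second Lamc1 probe stood at 0.18 with all 4 arrays above 0. Nid2 was not kept, being above background on 1 treated array at 24 h.

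**Figure D2:**
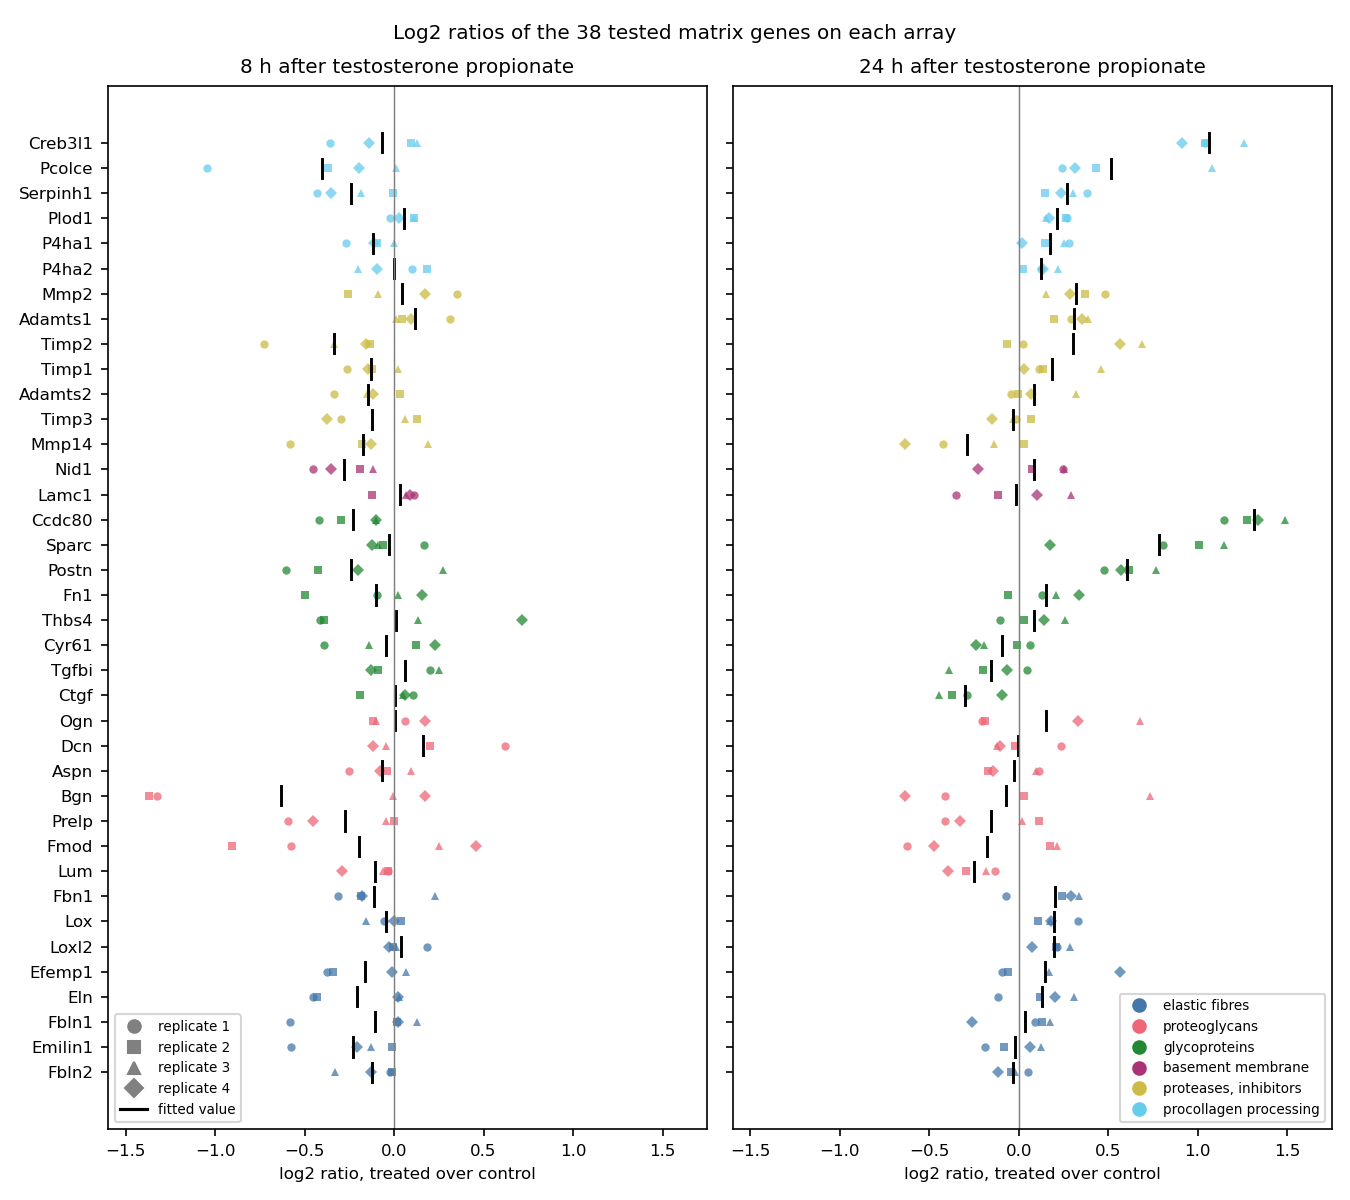
Log2 ratio of treated over control on each array (symbols are replicates 1 to 4, colours the groups of genes) for the 38 tested matrix genes, with the fitted value as a black bar, at 8 h on the left and 24 h on the right. At 24 h Ccdc80 and Creb3l1 lie farthest to the right, with fitted values of 1.31 and 1.06, and at 8 h the symbols of Bgn reach from -1.37 to 0.17.

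At 24 h, 14 of the 38 genes lay above 0 on all 4 arrays and 2, Ctgf and Lum, below 0 on all 4; over all genes tested these shares were 15.3% and 13.7%. Loxl2, kept through its treated 24 h samples alone, was among the 14. It was also among the 13 genes that were higher at 24 h at a limma unadjusted p under 0.05. Treated and control levels did not overlap for 7 genes that were higher (Adamts1, Ccdc80, Creb3l1, P4ha1, Pcolce, Postn and Sparc) and for 1 that was lower (Ctgf), against 6.55% and 4.72% of all genes.

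At 8 h no matrix gene was called in either direction, and most ratios lay slightly below 0. Over all genes, 0.0184% were called higher and 0.00919% lower at 8 h, or 0.0276% in either direction. At an unadjusted p under 0.05, 0 of the 38 genes were higher and 8 lower, against 6.15% and 11.1% of all genes. The median log2 ratio was -0.11, with 28 of 38 genes below 0, while the median of all genes tested was -0.01. Adamts1 was the 1 gene above 0 on all 4 arrays, and 9 genes (Ccdc80, Emilin1, Fbln2, Lum, Nid1, P4ha1, Prelp, Serpinh1 and Timp2) were below 0 on all 4, against 9.28% and 12.1% of all genes. By its brightest probe, no gene had separate treated and control levels at 8 h, against 2.11% of all genes on the higher side and 3.59% on the lower. The second probes of Pcolce (8.90 to 9.46 treated, 9.65 to 9.88 control) and Fn1 (6.38 to 6.78 treated, 6.83 to 7.33 control) did have separate levels, lower in the treated samples.

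Ccdc80 had log2 ratios of -0.42, -0.30, -0.10 and -0.10 at 8 h and a fitted value of -0.23 (limma adjusted p = 0.272). Creb3l1 had -0.36, 0.10, 0.13 and -0.14, and Sparc had 0.17, -0.06, -0.09 and -0.13. Postn had -0.61, -0.42, 0.27 and -0.20, with replicate 3 apart from the others in sign. Adamts1 had 0.31, 0.04, 0.01 and 0.09, highest in replicate 1. Treated and control levels overlapped for each of the 5 genes.

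Bgn had the lowest fitted ratio at 8 h, and its arrays were split between replicates 1 and 2 and replicates 3 and 4, which differed in dye orientation. Its ratios were -1.33 and -1.37 in replicates 1 and 2, where treated RNA carried Cy3, and -0.01 and 0.17 in replicates 3 and 4, where it carried Cy5. Its fitted value was -0.63 ± 0.26 (SE, n = 4 arrays; adjusted p = 0.28), and its second probe gave -0.65, -0.22, -0.01 and -0.38. Fmod (-0.57, -0.91, 0.25 and 0.46) and Thbs4 (-0.41, -0.39, 0.14 and 0.72) were split in the same way, with fitted values of -0.19 and 0.01. The 24 h arrays did not repeat this split by dye. There Bgn and Fmod had arrays on both sides of 0 in each orientation, and Thbs4 was higher with treated RNA in Cy3. Pcolce had -1.04, -0.37, 0.01 and -0.20 (fitted -0.40, adjusted p = 0.287), and its second probe was below 0 on all 4 arrays with -0.90, -0.42, -0.24 and -0.34 (fitted -0.48, adjusted p = 0.271). Timp2 was below 0 in both dye orientations, with -0.73, -0.14, -0.33 and -0.15 (fitted -0.34, adjusted p = 0.277). The median over the 38 genes was -0.30 in replicate 1, -0.09 in replicate 2, 0.01 in replicate 3 and -0.11 in replicate 4. Without 8 h replicate 2, Serpinh1 was called lower at 8 h (-0.33, limma adjusted p = 0.0344). Of 10877 genes of the array, 381 were then called higher and 836 lower at 8 h, against 2 and 1 of 10878 with all arrays. The number of calls at 8 h therefore depended on this array. Leaving out any other 8 h array gave no call among the 38 genes.

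The question of whether the response differed between the times was tested as the log2 ratio at 24 h minus that at 8 h. A total of 3 genes, Ccdc80, Creb3l1 and Postn, passed, all with the higher ratio at 24 h. Over all genes 0.754% passed with a higher ratio and 0.579% with a lower ratio at 24 h, and none of the 38 matrix genes was in the second group. The difference was 1.54 ± 0.12 for Ccdc80 (SE; limma adjusted p = 0.000538), 1.13 ± 0.13 for Creb3l1 (0.0065) and 0.85 ± 0.16 for Postn (0.0402). Sparc had 0.81 (adjusted p = 0.0721), Serpinh1 0.51 (0.0701), Pcolce 0.92 (0.0955) and Timp2 0.64 (0.123). The median difference of the 38 genes was 0.20, with 31 above 0, against a median of 0.03 over all genes. At an unadjusted p under 0.05, 12 had the higher ratio at 24 h and 1 the lower, against 8.78% and 7.63% of all genes. Adamts1 differed by 0.19 (adjusted p = 0.366), and Ctgf by -0.31 (0.228), the lowest of the 38. Under median centring the differences were 1.56, 1.19 and 0.89 for Ccdc80, Creb3l1 and Postn, and neither these nor any other of the 10878 genes passed (adjusted p = 0.238, 0.111 and 0.369). The call of Postn was lost in 11 of 19 alternatives. These 11 include both the processed signals and the authors' values, which are the same data and gave a difference of 1.34 (limma adjusted p = 0.0853).

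**Figure D3:**
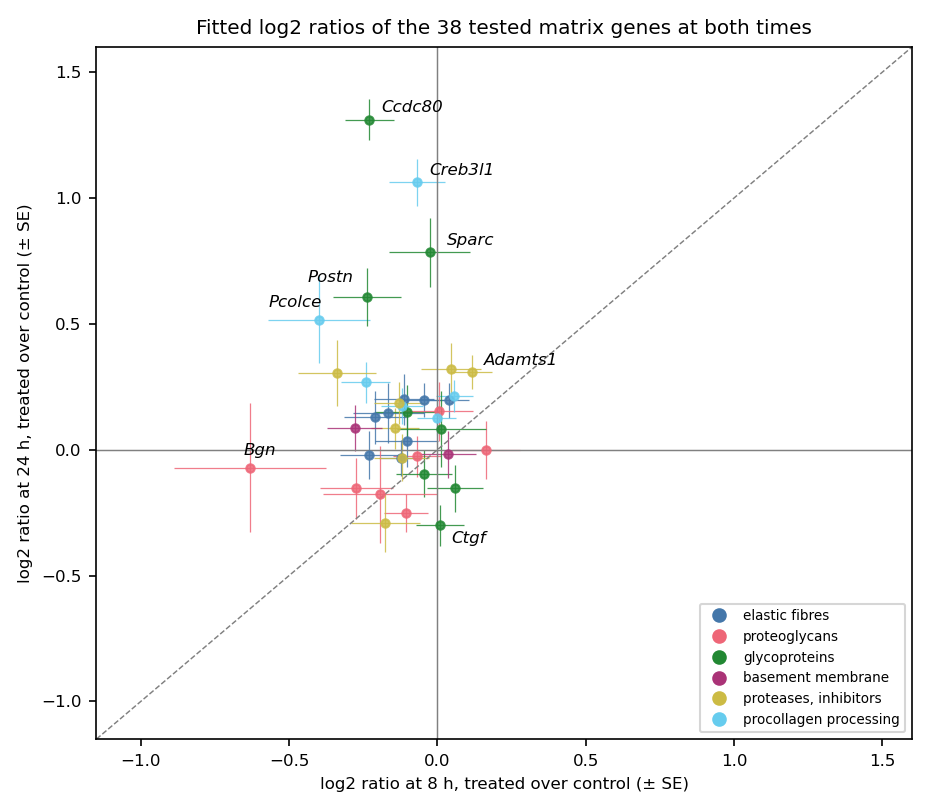
Fitted log2 ratio at 24 h against that at 8 h for the 38 tested matrix genes, with bars of 1 SE in each direction; the dashed line marks equal ratios at both times. Ccdc80, Creb3l1, Sparc and Postn lie near or below 0 at 8 h and between 0.61 and 1.31 at 24 h.

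The promoters of the 3 genes that differed between the times are shown, since each of these genes passed that test, as 300 bases from 250 before to 50 after the gene's start. They come from RefSeq (build GRCr8), in which 34 of the 48 names had a promoter. Capitals mark motifs found on either strand among CAGAC (the SMAD box), AGAACA (part of the androgen response element), TATAAA (the TATA box), TGACGT (part of the cAMP response element), CCAAT and the full androgen response element, a palindrome of AGAACA with a spacer.
Ccdc80 (chr11:69224795-69225094, minus strand): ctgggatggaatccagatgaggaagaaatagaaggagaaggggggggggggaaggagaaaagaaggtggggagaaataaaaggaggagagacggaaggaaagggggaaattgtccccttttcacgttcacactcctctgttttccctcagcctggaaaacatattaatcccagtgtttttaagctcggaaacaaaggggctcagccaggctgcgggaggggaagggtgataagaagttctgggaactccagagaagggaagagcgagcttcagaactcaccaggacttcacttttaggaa
Creb3l1 (chr3:98449055-98449354, minus strand): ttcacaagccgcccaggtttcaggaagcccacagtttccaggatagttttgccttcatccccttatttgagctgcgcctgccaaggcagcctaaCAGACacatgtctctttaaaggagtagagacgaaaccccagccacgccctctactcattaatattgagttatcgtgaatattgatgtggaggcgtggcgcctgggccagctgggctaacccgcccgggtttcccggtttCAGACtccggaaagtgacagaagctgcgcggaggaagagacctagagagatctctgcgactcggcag
Postn (chr2:140677811-140678110, plus strand): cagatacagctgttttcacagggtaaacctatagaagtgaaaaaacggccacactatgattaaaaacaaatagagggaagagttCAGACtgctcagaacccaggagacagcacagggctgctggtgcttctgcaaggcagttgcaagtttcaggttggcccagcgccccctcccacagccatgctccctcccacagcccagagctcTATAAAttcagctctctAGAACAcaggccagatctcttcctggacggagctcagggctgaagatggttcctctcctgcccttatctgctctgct
Ccdc80 held none of the motifs in this window. Creb3l1 held CAGAC at bases -156 to -152 and -17 to -13 from the start. Postn held CAGAC at -166 to -162, TATAAA at -44 to -39 and AGAACA at -27 to -22. Among 33469 rat promoters of the same length, 50.1% held CAGAC, 20.7% AGAACA, 14.2% TATAAA, 7.94% TGACGT, 37.5% CCAAT and 0.0149% the full androgen response element. Of the 34 matrix promoters, 18 held CAGAC, 2 AGAACA, 6 TATAAA, 1 TGACGT, 7 CCAAT and 0 the full element. These matches are descriptions of letters, and no binding was measured.

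Repeated spots, 10 per array, were present for 7 of the tested matrix genes and showed how far a ratio varied within an array. The median within-array SD over spots ran from 0.0726 for Adamts1 to 0.130 for Ctgf. For Mmp14 it was 0.0826, while its array means ranged from -0.58 to 0.19 at 8 h and from -0.63 to 0.03 at 24 h. Dcn had 0.0789, with array means at 8 h of 0.62, 0.20, -0.05 and -0.12. For Mmp14 at both times and for Dcn at 8 h, the arrays differed by more than the spots within an array. For Dcn at 24 h the SD between arrays was 0.17, and the SD over spots was 0.20, 0.12, 0.05 and 0.18 in replicates 1 to 4. An array's value is a mean over its spots and varies less through spot noise than a single spot does. These SDs therefore do not show that the 24 h arrays of Dcn differed by spot noise alone.

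**Figure D4:**
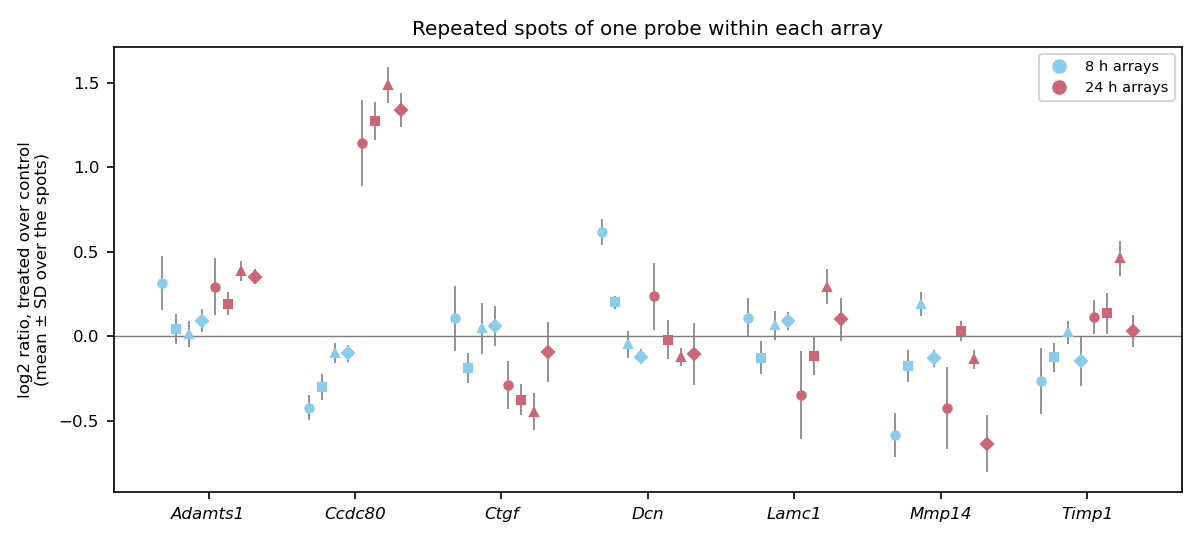
Log2 ratio (mean ± SD over the spots of 1 probe) on each array for the 7 tested matrix genes with 10 spots per array; the circle, square, triangle and diamond are replicates 1 to 4. The bars are short beside the gap between times for Ccdc80, and beside the spread between the 8 h arrays for Mmp14 and Dcn.

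The collagen chains, which the proteins above process or bind, held 6 genes called higher and 0 lower of 13 tested at 24 h. Col1a1 had a log2 ratio of 1.54, Col3a1 1.48, Col1a2 1.13 and Col5a2 0.88. At 8 h none of the 13 chains was called, and all 13 lay below 0. Of 22 further tested matrix proteins, enzymes and receptors, none was called by limma at 24 h, with 1 higher and 2 lower at an unadjusted p under 0.05. Of 9 tested genes of the TGF-beta pathway, which drives matrix production in fibroblasts, 0 were called higher at 24 h and 1 lower, the nuclear corepressor Tgif1 (-0.31).

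Markers of cell types were compared at the same times, and none of them was called at 8 h. Of 9 tested macrophage markers, 3 were called higher at 24 h: the complement genes C1qa (0.69) and C1qc (0.43) and the haemoglobin receptor Cd163 (0.50). The other 6 were not called: Aif1 (0.51), C1qb (0.37), Csf1r (0.08), Emr1 (0.05), Cd68 (-0.02) and Itgam (-0.10). At 8 h all 9 lay below 0 and none was called. The summed level (log2 of the summed intensities) of the macrophage markers ran from 11.29 to 11.93 in treated and from 11.12 to 11.41 in control samples at 24 h, and from 10.94 to 11.38 and 11.28 to 11.71 at 8 h; Mrc1 and Ptprc were not above background anywhere. Of 7 tested fibroblast markers, 0 were called higher at 24 h and 1 lower, Gsn (-0.57), which codes for the actin-severing protein gelsolin. Not called were Cd34 (0.14), Mfap5 (0.13), Pdgfra (-0.03), Pi16 (-0.05), Dpt (-0.05) and Col14a1 (-0.24). Their summed level ran from 11.79 to 12.03 in treated and from 12.06 to 12.36 in control samples at 24 h, and from 11.87 to 12.48 and 12.06 to 12.55 at 8 h; Ly6c, Tcf21 and Thy1 were not above background anywhere. The part of these cell types in the results was not tested, and in bulk RNA more cells of a type and more RNA per cell cannot be told apart.

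The 3 tested erythrocyte markers had median ratios from -2.17 to 0.38 over the 8 h arrays and from 0.10 to 1.61 at 24 h, with none called. Their summed level ran from 13.10 to 15.01 in treated and from 13.21 to 13.45 in control samples at 24 h, and from 13.24 to 13.56 and 12.87 to 15.44 at 8 h. At 24 h, 1 of 5 endothelial markers was called higher (Kdr, 0.36), 1 of 5 adipocyte markers (Fabp4, 0.43), and 0 of 9 smooth muscle and pericyte markers and 0 of 5 nerve markers. The endothelial markers not called were Pecam1 (0.14), Flt1 (0.01), Vwf (-0.07) and Cdh5 (-0.27). Among adipocyte markers these were Cfd (0.39), Adipoq (0.37), Pparg (0.07) and Lpl (-0.03). Of 13 muscle fibre markers, 9 lay below 0 at 24 h, with a median of -0.25 and array medians of -0.06, -0.17, -0.47 and -0.20; skeletal actin, Acta1, was called lower (-0.44) and the myosin gene Myh1 higher (1.33). The summed level of 12 of these markers ran from 16.96 to 17.17 in treated and from 17.31 to 17.55 in control samples at 24 h, without overlap, and from 17.04 to 17.45 and 17.02 to 17.53 at 8 h. The part of muscle fibre RNA in the results was not tested. Replicate 3 at 24 h had the highest median of the matrix genes (0.24, against 0.07 to 0.09 on the other 24 h arrays), of the collagen chains (1.00, against 0.30 to 0.35), of the macrophage markers (0.48, against 0.08 to 0.27) and of the erythrocyte markers (1.61, against 0.10 to 0.18). Without that array Ccdc80 and Creb3l1 were called at 24 h, and Sparc, Postn and Adamts1 were not.

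**Figure D5:**
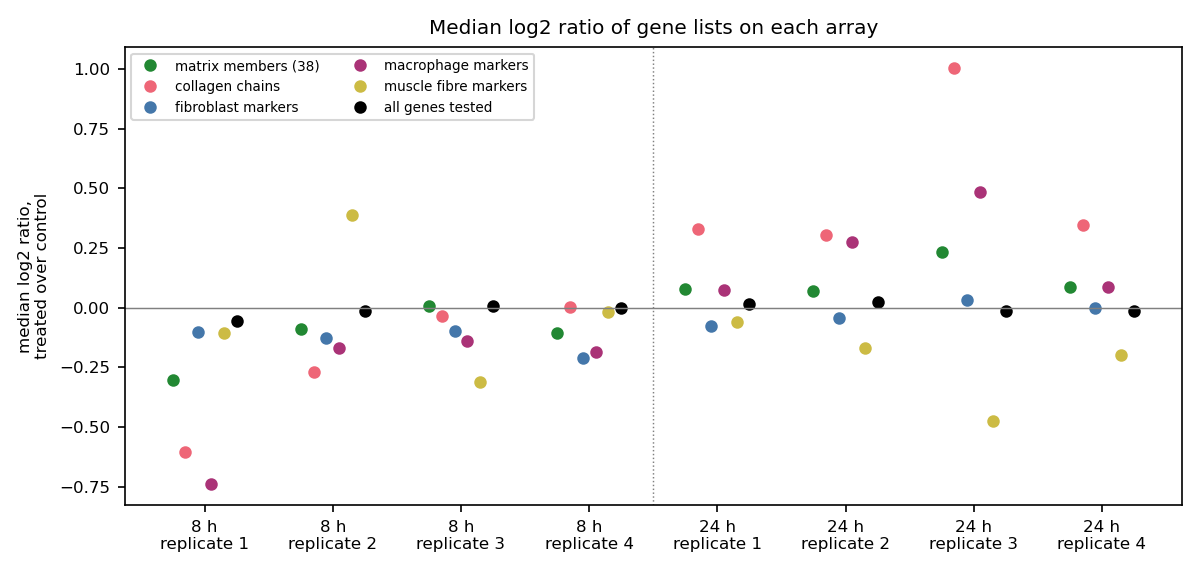
Median log2 ratio of treated over control on each array for the 38 matrix genes, the collagen chains, fibroblast, macrophage and muscle fibre markers, and all genes tested. The matrix genes lie between 0.07 and 0.24 on the 24 h arrays and between -0.30 and 0.01 on the 8 h arrays, and 24 h replicate 3 has the highest collagen and macrophage medians.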

How the data were processed

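Gene expression was measured on 8 Agilent 2-colour arrays, read with Feature Extraction 9.5.3.1 of Agilent per the submitters' processing notes. The deposited mean signal and median background of each spot are raw linear intensities per the file headers, and the deposited processed signals are intensities after background and dye correction. The deposited LogRatio column holds log10 ratios of red over green. The authors' deposited values are log2 ratios with scale, centring and direction unstated; they equalled the log2 processed ratio of treated over control to within 1.35e-05, with column medians from -0.144 to 0.0896.

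Mean signals were background-corrected with normexp (offset 50), then loess-normalized array by array with control spots at weight 0, in limma 3.58.1 (R 4.3.3). Outlier-flagged spots (731 to 927 of 42877 per array) were dropped, the dye labels set each ratio as treated over control, and spots of a probe were averaged. Levels of single channels are log2 intensities after loess and Aquantile normalization. A probe counted as above background on an array when at least 0.5 of its spots did, and 12074 of 30367 probes were kept. Probes without a usable value at both times were left out, which gave 12069. lmFit and eBayes were fitted on all 8 arrays with a coefficient for each time and 1 for dye, and p-values were adjusted by Benjamini-Hochberg. The number of arrays limits the precision. In ratios simulated for 12014 probes with 200 changed, 70% of changes of size 0.5 and 99% of size 1 (log2) were recovered at 24 h, with 5.59% of calls false. The simulated noise was independent between probes, and each probe had the same SD on every array. The real arrays differed in spread, so these rates describe the simulation and may not hold for the data.

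Matrix genes and lists were chosen with earlier results of these data known. Every matrix gene was named, with values for each array if it passed a test, and otherwise by its log2 ratio; values of other genes singled out, such as Ctgf and Bgn, were chosen after they were seen. Of each other list, up to 4 genes past the threshold at 24 h with the largest ratios were named. For the macrophage, fibroblast, endothelial and adipocyte markers the rest of those tested were named as well. Ctgf and Cyr61 are array names of genes now called Ccn2 and Ccn1. Deviations of same-numbered arrays at the 2 times correlated by -0.26, 0.17, -0.17 and -0.07. With 4 arrays for each time, these values cannot show whether replicate numbers pair the arrays. The labels do not say what the numbers share, so no block was used in the main fit. Alternatives were other background corrections, centring, filters, weights, the authors' values, a replicate block and leaving out each array.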

Additional observations from a re-analysis of the deposited data

Results flagged for a closer look

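For 3 genes the log2 ratio differed between the times by limma's test of the difference: Ccdc80 by 1.54, Creb3l1 by 1.13 and Postn by 0.85, each higher at 24 h than at 8 h. Time and slide cannot be told apart in this design. Among 76 groups of 4 arrays (38 genes at 2 times), 2 held an array far from the other 3 by Dixon's criterion, and chance alone picks out about 1 in 20 groups. Fbln1 had -0.58 in 8 h replicate 1, with the other arrays between 0.02 and 0.13. Lum had -0.29 in 8 h replicate 4, with the other arrays between -0.06 and -0.03.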

How the results depend on the processing

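The main setting called 5 matrix genes higher and 0 lower at 24 h. With array weights, and with the 24 h arrays alone, 9 were higher. Ctgf and Lum were called lower, making 2, with the processed signals, a normexp offset of 16, no background correction, the authors' values, array weights or the 24 h arrays alone. The authors' values equalled the processed signals to within 1.35e-05, so these 2 alternatives are 1 check under 2 names, here and in the counts of alternatives. Median centring gave 6 higher at 24 h and 0 that differed between the times, where 3 did in the main setting; under it all genes had a median of 0.15 at 24 h and of 0.12 at 8 h, 384 of them were higher and 18 lower at 24 h, and 0 of 10878 passed between the times. With a replicate block, 6 genes were higher at 24 h and 4 differed between the times, Pcolce being added to each (adjusted p = 0.0247 and 0.0222). Leaving out 1 array at a time gave 2 to 9 genes higher and 0 to 1 lower at 24 h, 0 higher and 0 to 1 lower at 8 h, and 2 to 4 with the higher ratio at 24 h. The 9 came without 8 h replicate 1, the 2 without 24 h replicate 3, and 3 without any other 24 h array. Ccdc80 and Creb3l1 were called at 24 h in all 20 alternatives, with log2 ratios from 1.24 to 1.68 and from 0.98 to 1.37. No called gene changed sign. The cause of these changes was not tested. Of the 38 tested genes, 17 had a mean level under 7 on the log2 scale and 9 were not well above background everywhere, which limits the size of their ratios.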
